A study of Homo sapiens with 3 samples.

Results

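The S100 family of small calcium-binding proteins was followed in TC32, an Ewing sarcoma cell line, with 3 RNA-seq libraries. Ewing sarcoma is a tumour of bone and soft tissue driven by EWS-FLI1, a fusion of an RNA-binding protein with the ETS transcription factor FLI1. Of 22714 gene names in the files, 10 were taken by symbol: S100A1, S100A2, S100A3, S100A4, S100A6, S100A10, S100A11, S100A13, S100A16 and S100B. They were picked because S100A6 went opposite ways in the 2 treatments, so the values of these comparisons are a description and carry no test. The libraries were TC32 cells with knockdown of EWS-FLI1, TC32 cells given 3 µM YK-4-279 for 15 h with DMSO as its vehicle, and TC32 cells labelled WT control. YK-4-279 is known as an inhibitor of the binding between EWS-FLI1 and RNA helicase A. All cells grew in RPMI with serum. The title of the knockdown sample holds shEF, where sh commonly stands for short hairpin, but the labels do not say how long the knockdown lasted. Nor do they say what the control cells were given, be it vehicle or hairpin. There was 1 library per group, so no difference below has a replicate check.

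S100 proteins are small, mostly dimeric proteins with a pair of EF-hand loops, the helix-loop-helix units that hold calcium. On binding calcium most of them expose a surface that grips a partner protein, such as an annexin, a myosin or a kinase, and several are also released from cells and bind receptors. S100A10 is the exception that has lost calcium binding and stays in its active shape, paired with annexin A2. S100A4 is known for its part in cell motility and metastasis, S100B is a marker of glial and melanocytic cells, and S100A6 is common in mesenchymal and proliferating cells.

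Each of the 10 symbols stood on 1 locus and none on a comma-joined name. In RefSeq (GRCh38.p14), 9 of them lie on chromosome 1 within a span of 1651 kb, and S100B lies on chromosome 21. Levels are FPKM, the authors' fragments per kilobase of transcript, scaled to the mapped fragments of the library. Levels of different genes can thus be set side by side within a library. The deposited values differed in overall scale, and the median log2 ratio to the control was -1.75 for the knockdown and -2.20 for YK-4-279. They were therefore multiplied by 1.44 in the knockdown library, 2.12 in the YK-4-279 library and 0.325 in the control, so that the median of the 9939 compared names was level. Compared names had a mean deposited FPKM of at least 1 over the 3 libraries. The relative log2 ratio is the difference of log2(scaled FPKM + 1), which understates the change of scarce genes. A gene was called higher or lower from a relative log2 ratio of 1 in size, which is a 2-fold change.

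Depth was read from the steps in low values of olfactory receptor genes. For a transcript of 1 kb, a single fragment equalled some 0.0168 FPKM after knockdown, 0.0128 with YK-4-279 and 0.0657 in the control. Fragment numbers and standard errors (SE) below rest on these steps, are approximate, and cover counting error only. FLI1, the 3' part of the fusion, had 1.48 FPKM in the knockdown library, 8.29 with YK-4-279 and 65.9 in the control, with relative log2 ratios of -2.84 for the knockdown and -0.27 for YK-4-279. Of the 12 Ewing sarcoma markers listed, 10 were compared, and CD99 was listed at 0 in all 3 libraries. The 12 summed to 118 scaled FPKM after knockdown, 447 with YK-4-279 and 387 in the control. CCK alone held 80.6 of the sum with YK-4-279, against 0.206 in the control, and without it the YK-4-279 sum lay below that of the control. In these bulk libraries, fewer cells of a type and less RNA per cell cannot be told apart.

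Of the 10 genes, 6 were compared, namely S100A2, S100A4, S100A6, S100A10, S100A11 and S100A13. S100A2 passed with a mean of 1.04 FPKM, through the treated libraries alone, so it had to differ from the control. S100A11, which binds annexin A1 and takes part in membrane repair, was the most abundant member in every library. It had 120.03 FPKM in the knockdown library, 199 with YK-4-279 and 880 in the control, which was 58.4%, 58.2% and 78.0% of the summed FPKM of the 10 genes. S100A13, which helps FGF1 and interleukin-1 alpha leave cells without a signal peptide, ranked 3 after knockdown, 3 with YK-4-279 and 2 in the control. The order below the top differed between libraries. S100A10 ranked 2 in the knockdown library, 5 with YK-4-279 and 4 in the control. S100A6 ranked 6 after knockdown, 2 with YK-4-279 and 5 in the control. S100A6 made up 0.735% of the sum in the knockdown library, 21.5% with YK-4-279 and 1.47% in the control.

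**Figure D1:**
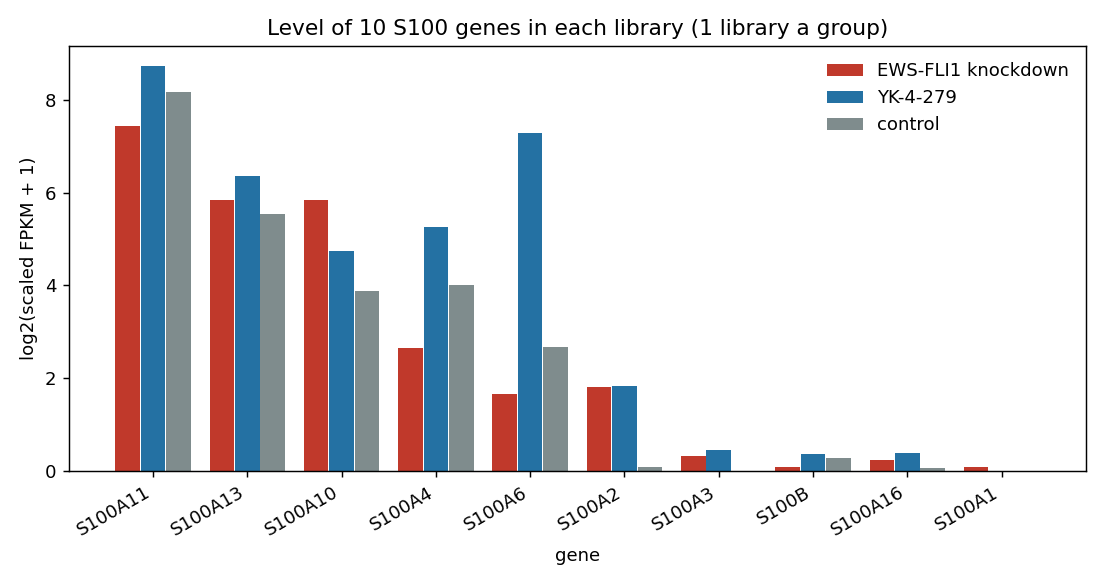
Level of the 10 S100 genes as log2(scaled FPKM + 1) on the vertical axis, 1 bar per library in the order EWS-FLI1 knockdown, YK-4-279, control, with 1 library per group and no error bar. S100A11 is the tallest in each library, the S100A6 bar with YK-4-279 (155.9 scaled FPKM) stands far above those of knockdown (2.18) and control (5.38), and S100A3, S100B, S100A16 and S100A1 lie near 0.

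S100A6, also called calcyclin, was the member that differed most between the treated libraries. It had 1.51 FPKM in the knockdown library, 73.7 with YK-4-279 and 16.6 in the control, from about 60, 3858 and 169 fragments. Scaled on the median gene these were 2.18, 155.9 and 5.38 FPKM. The knockdown library was the lowest and the YK-4-279 library the highest, on deposited and on scaled values. The ratio of scaled values was 0.404 for knockdown over control (counting interval 0.295 to 0.544) and 28.96 for YK-4-279 over control (24.8 to 33.9). On the relative log2 scale these were -1.01 (SE 0.16) and 4.62 (SE 0.10). Among 9939 compared names, S100A6 ranked 22 from the top with YK-4-279 and 1670 from the bottom after knockdown. The value after knockdown lay at the edge of the threshold. It was -0.51 relative to genes of like level, -0.53 with a pseudocount of 5, -0.48 scaled on 7 reference genes and -0.62 scaled on names with a mean of at least 5 FPKM.

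S100A4, which lies close to S100A6 on the chromosome and binds non-muscle myosin, had 3.66 FPKM in the knockdown library, 17.6 with YK-4-279 and 46.7 in the control. Scaled values were 5.27, 37.2 and 15.2 FPKM. The relative log2 ratio was -1.37 (SE 0.13) after knockdown and 1.24 (SE 0.08) with YK-4-279, so S100A4 lay on the same sides of the median gene as S100A6 in each treated library. The direction with YK-4-279 turned to -1.36 on deposited values without scaling, on which the median compared gene itself stood at -2.20. It was 0.75 scaled on all names above 0 and 0.84 with deposited ratios centred on the median, both inside the threshold. After knockdown S100A4 stood at -0.92 relative to genes of like level and -0.97 with a pseudocount of 5. It stood at -0.76 scaled on the reference genes and -0.91 scaled on names with a mean of at least 5 FPKM.

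S100A10, the light chain of the annexin A2 complex, was higher after knockdown. It had 39.4 FPKM in the knockdown library, 12.2 with YK-4-279 and 42.4 in the control, and scaled values of 56.7, 25.7 and 13.8 FPKM. The relative log2 ratio was 1.96 (SE 0.06) for knockdown and 0.86 (SE 0.07) for YK-4-279, although without scaling the knockdown value was -0.11 against a median gene at -1.75. S100A10 ranked 527 from the top of the compared names after knockdown. It was higher under 13 of 14 other settings, with 1.33 to 2.79 in those 13.

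S100A11 had a relative log2 ratio of -0.72 (SE 0.03) after knockdown and 0.56 (SE 0.02) with YK-4-279, both inside the threshold. Its knockdown value was 0.25 relative to genes of like level and -1.38 scaled on all names above 0, so the direction hung on the scale. RefSeq lists 10 S100A11 pseudogenes, and how reads shared with them were counted is not given in the sources used here. S100A13 had 39.02 FPKM in the knockdown library, 38.2 with YK-4-279 and 140.9 in the control, with relative log2 ratios of 0.29 (SE 0.06) and 0.81 (SE 0.05). Its knockdown value turned to -0.36 scaled on all names above 0, -0.07 with deposited ratios centred on the median and -1.83 without scaling, and was 1.21 relative to genes of like level. With YK-4-279 it turned to -1.86 without scaling. S100A1 lies within the span of S100A13 on the other strand, and the labels name no strand-marking kit, so reads of the overlap cannot be told apart.

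S100A2, best known in epithelial cells, was near absent from the control. It had 1.74 FPKM in the knockdown library, 1.22 with YK-4-279 and 0.183 in the control, from about 65, 60 and 2 fragments. The ratio of scaled values was 42.1 for knockdown over control (counting interval 9.81 to 311) and 43.4 for YK-4-279 over control (10.1 to 321). The relative log2 ratios of 1.72 and 1.75 became 4.03 and 4.07 with a pseudocount of 0.1, and 0.57 and 0.58 with a pseudocount of 5. The treated libraries were alike in S100A2, and the control value rested on about 2 fragments.

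**Figure D2:**
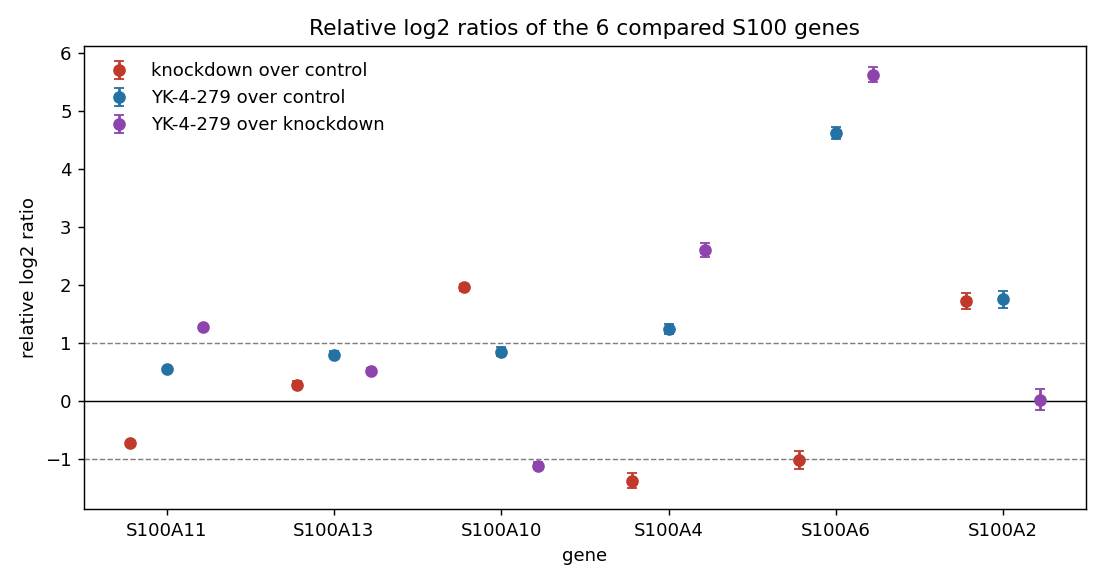
Relative log2 ratio (vertical axis) of the 6 compared S100 genes for knockdown over control, YK-4-279 over control and YK-4-279 over knockdown; bars are counting SE and dashed lines mark 1 and -1. S100A6 stands at -1.01, 4.62 and 5.63, and S100A10 is the 1 gene below -1 for YK-4-279 over knockdown, at -1.11, which was -0.94 with upper quartile scaling.

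Counted over the 6 compared genes, S100A2 and S100A10 were higher and S100A4 and S100A6 lower after knockdown, where 17.3% of all compared names were higher and 17.0% lower. That made 4 of 6 past the threshold in either direction, beside 34.2% of all. With YK-4-279, S100A2, S100A4 and S100A6 were higher and 0 lower, where 2.41% of all compared names were higher and 1.69% lower, 4.11% in either direction. The median relative log2 ratio of the 6 was -0.22 after knockdown, against 0.0064 over all compared names. With YK-4-279 it was 1.05, against 0.029 over all. These comparisons share the control library, the genes were chosen on these ratios, and S100A2 had to differ from the control to be compared. Nothing is therefore read from the counts or medians. All 6 ratios with YK-4-279 were above 0, from 0.56 for S100A11 to 4.62 for S100A6, but without scaling 4 of them were at -1 or below. Scaled on the 7 reference genes, 5 members were higher with YK-4-279.

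**Figure D3:**
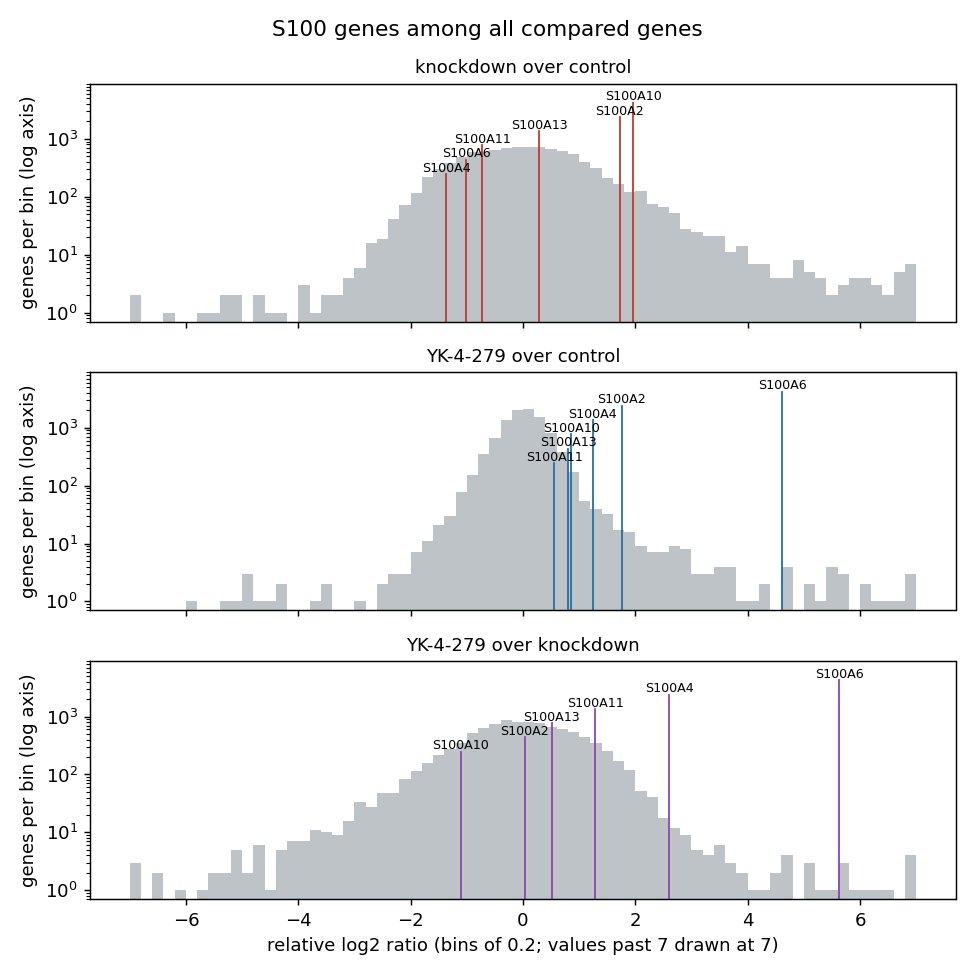
Histograms of the relative log2 ratio (horizontal axis, bins of 0.2) of the 9939 compared names, with the number of genes per bin on a log axis, 1 panel per comparison; lines mark the 6 S100 genes. The histogram for YK-4-279 over control is the narrowest, with S100A6 at 4.62 in its upper tail, while after knockdown the S100 genes lie from -1.37 to 1.96.

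Set directly against each other, the treated libraries differed most in S100A6 and S100A4 among the 6 genes. YK-4-279 over knockdown gave relative log2 ratios of 5.63 (SE 0.13) for S100A6, 2.61 (SE 0.12) for S100A4 and 1.28 (SE 0.03) for S100A11. S100A10 was lower at -1.11 (SE 0.06), and S100A13 and S100A2 stood at 0.52 and 0.03. Among all compared names, 15.3% were higher and 14.5% lower in this comparison, 29.8% in either direction. S100A6 ranked 11 from the top of 9939 names and S100A4 ranked 65. The S100A11 value became 0.26 relative to genes of like level. On that scale S100A13 turned to -0.28, while S100A6, S100A4, S100A2 and S100A10 stood at 5.30, 2.27, 0.42 and -1.76. Among the 1988 names with the highest mean level, where S100A10, S100A11 and S100A13 lie, the median for YK-4-279 over knockdown was 0.84. The median of these names for knockdown over control was -0.89. Among the 1988 names next in level, where S100A4 and S100A6 lie, these medians were 0.29 and -0.42.

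Ratios of 2 genes within a library need no scaling and were used as a further description. S100A6 over S100A4 was 0.413 in the knockdown library, 4.20 with YK-4-279 and 0.355 in the control. The knockdown and control libraries were thus close in this ratio and the YK-4-279 library stood apart. S100A6 over S100A11 was 0.0126 after knockdown, 0.37 with YK-4-279 and 0.0188 in the control. S100A10 over S100A11 was 0.328 after knockdown, 0.061 with YK-4-279 and 0.0482 in the control, so here the knockdown library stood apart. S100A10 over its partner ANXA2, which encodes annexin A2, was 0.0303 after knockdown, 0.0289 with YK-4-279 and 0.0300 in the control. That ratio was nearly the same in all 3 libraries, although both genes differed in level. S100A11 over ANXA1, which encodes its partner annexin A1, was 0.770 after knockdown, 1.08 with YK-4-279 and 1.23 in the control.

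**Figure D4:**
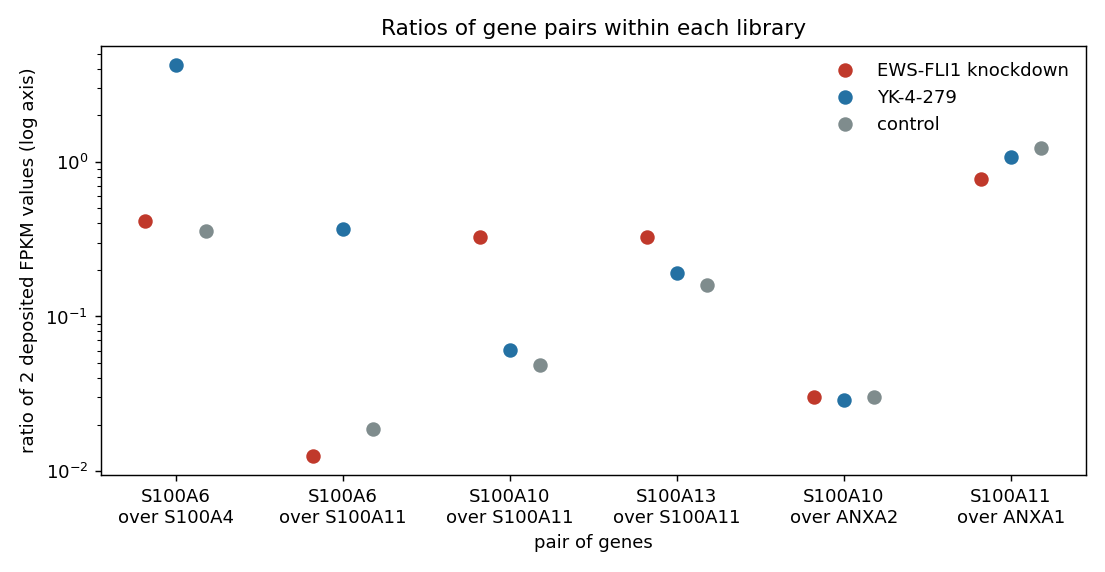
Ratio of the deposited FPKM of 2 genes within each library (vertical log axis) for 6 gene pairs, 1 point per library and no error bar. S100A6 over S100A4 is high with YK-4-279 alone, at 4.20, S100A10 over S100A11 is high after knockdown alone, at 0.328, and S100A10 over ANXA2 lies between 0.0289 and 0.0303.

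The promoters of S100A6, S100A4, S100A10 and S100A11 are shown because the comparisons above turn on these genes and EWS-FLI1 carries an ETS domain, which binds the letters GGAA, in tandem repeats above all. Each is the 250 bases before the RefSeq start on the minus strand of GRCh38.p14, at chr1:153535992-153536241 for S100A6, chr1:153545807-153546056 for S100A4, chr1:151993860-151994109 for S100A10 and chr1:152037005-152037254 for S100A11. Capitals mark GGAA on either strand, so that TTCC is GGAA on the other.
S100A6: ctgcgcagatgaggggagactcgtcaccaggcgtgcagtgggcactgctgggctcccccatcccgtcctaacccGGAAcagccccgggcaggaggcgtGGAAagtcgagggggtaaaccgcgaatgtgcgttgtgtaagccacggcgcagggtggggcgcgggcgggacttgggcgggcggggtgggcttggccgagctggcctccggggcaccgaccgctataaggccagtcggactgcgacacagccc
S100A4: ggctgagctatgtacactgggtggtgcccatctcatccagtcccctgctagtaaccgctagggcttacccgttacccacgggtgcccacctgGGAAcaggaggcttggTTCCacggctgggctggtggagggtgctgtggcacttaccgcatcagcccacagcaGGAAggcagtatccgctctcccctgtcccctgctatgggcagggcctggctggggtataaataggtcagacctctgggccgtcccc
S100A10: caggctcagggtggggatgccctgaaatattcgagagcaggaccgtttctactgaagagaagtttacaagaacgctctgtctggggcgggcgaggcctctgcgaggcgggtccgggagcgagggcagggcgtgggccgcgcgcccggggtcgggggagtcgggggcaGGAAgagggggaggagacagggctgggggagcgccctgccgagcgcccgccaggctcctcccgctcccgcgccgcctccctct
S100A11: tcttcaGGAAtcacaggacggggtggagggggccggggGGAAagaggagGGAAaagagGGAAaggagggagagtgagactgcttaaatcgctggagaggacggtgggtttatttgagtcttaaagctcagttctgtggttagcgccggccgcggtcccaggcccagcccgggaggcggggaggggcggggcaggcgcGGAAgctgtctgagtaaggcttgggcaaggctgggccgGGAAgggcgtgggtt
GGAA occurred 2 times in the S100A6 promoter, 3 times for S100A4, 1 time for S100A10 and 6 times for S100A11, counting both strands and allowing overlaps. Of 35116 RefSeq promoters of this length, 92.7% held GGAA, with a median of 3 matches. The tandem GGAAGGAA was in none of the 13 promoters listed for 9 members, against 3.06% of all promoters on either strand. With so low a share and only 13 promoters, nothing is read from this. Sequence beyond these 250 bases was not searched, and binding was not tested. The letters TATAA, read on the gene's strand alone, stood 1 time each in the S100A6 and S100A4 promoters. They also stood 1 time in a promoter of S100A13, not shown here, and were in 13.6% of all promoters. They were not in the S100A10 or S100A11 window.

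The other 4 genes were too low to compare. S100A1, a regulator of calcium handling in muscle, was listed at 0.0411 FPKM in the knockdown library and at 0 with YK-4-279 and in the control. S100A3, known from hair cuticle, had 0.175 FPKM after knockdown, 0.178 with YK-4-279 and was listed at 0 in the control. S100A16, which is widely expressed in other tissues, had 0.125, 0.149 and 0.159 FPKM in the knockdown, YK-4-279 and control libraries. S100B had 0.0460, 0.137 and 0.647 FPKM in the same order. Each of these values rested on about 12 fragments or fewer, and no direction is read from them. Of the 11 further names of the S100 list, only S100PBP, a nuclear S100P-binding protein that is no S100 itself, was compared, with relative log2 ratios of -0.79 after knockdown and 0.11 with YK-4-279. The inflammatory pair S100A8 and S100A9 reached at most 0.184 and 0.445 FPKM.

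The genes around the members on chromosome 1 were taken by position. Inside the span lie 44 other names, mostly genes of the skin barrier such as FLG, LCE and SPRR genes. None of them was compared, and the highest value among them was 0.296 FPKM. Of the 10 nearest names before the span, 3 were compared and 0 passed the threshold in either treated library. The 10 nearest symbols after it gave 8 compared names, of which 4 were higher and 2 lower after knockdown and 0 passed with YK-4-279. Over all compared names, 17.3% were higher and 17.0% lower after knockdown, and 4.11% passed with YK-4-279. SNAPIN, a partner of the SNARE complex, and ILF2, an RNA-binding protein, were the lower pair at -1.10 and -1.75. SLC39A1, a zinc transporter, was the highest at 1.99. On deposited FPKM the 4 higher names were each below the control.

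Partners inside the cell were listed by their known binding to S100 proteins, 21 in all, of which 16 were compared. After knockdown 6 were higher and 3 lower, beside 17.3% and 17.0% of all compared names. Their median relative log2 ratio was 0.58, against 0.0064 over all compared names. MYH9, the non-muscle myosin heavy chain that S100A4 binds, had 7.99 FPKM in the knockdown library, 1.09 with YK-4-279 and 3.35 in the control, and its relative log2 ratio after knockdown was 2.58. AHNAK, a giant scaffold bound by the S100A10 and annexin A2 complex, stood at 2.42. ANXA2 stood at 2.02, with 1297 FPKM after knockdown, 420.4 with YK-4-279 and 1414 in the control. ANXA11 stood at 1.73 and PPFIBP1, a liprin named in a joined locus with REP15, at 1.40, but on deposited FPKM ANXA2 and PPFIBP1 were below the control. The lower partners were SUGT1, a co-chaperone bound by S100A6, at -1.73, CACYBP, the calcyclin-binding protein in a joined locus with RABGAP1L, at -1.54, and MDM2, a ubiquitin ligase, at -1.29. S100A6, at the edge of the threshold, was lower after knockdown, as were SUGT1 and CACYBP. The list as a whole did not share this direction, since 6 of the 16 compared partners were higher, ANXA2 and ANXA11 among them.

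With YK-4-279, 1 of the 16 partners was higher and 0 were lower, beside 2.41% and 1.69% of all compared names. Their median was 0.12 against 0.029 over all compared names. SUGT1 and CACYBP stood at -0.19 and -0.23 with YK-4-279, against 4.62 for S100A6. Of 6 receptors of released S100 proteins, 3 were compared. ITGB1, the integrin beta 1 chain, was higher after knockdown at 2.53 and FGFR1 at 1.28, the FGFR1 value falling just below the control on deposited FPKM, while both lay inside the threshold with YK-4-279 at 0.32 and 0.44. AGER, the receptor RAGE, and TLR4 reached at most 0.500 and 0.0419 FPKM.

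Markers of other cell types were read beside these values. The 11 fibroblast and endothelial markers summed to 59.2 scaled FPKM in the knockdown library, 29.9 with YK-4-279 and 26.6 in the control. Of these, 5, 4 and 4 had at least 1 FPKM, and CDH5 was listed at 0 after knockdown. Of the 4 compared after knockdown, FAP stood at 1.86, PDGFRB at 1.44 and LUM at 1.34, with LUM below the control on deposited FPKM. DCN, which encodes the matrix proteoglycan decorin, went the other way at -1.86. The 9 epithelial and keratinocyte markers summed to 10.99, 9.95 and 5.23 scaled FPKM in the same order, with 2, 2 and 3 of them at 1 FPKM or more and KRT5 listed at 0 throughout. The 7 Schwann and melanocyte markers summed to 5.06, 7.20 and 7.73, with SOX10 listed at 0 with YK-4-279 and in the control. FOXD3 alone held 2.58, 5.33 and 6.88 of these sums. The 8 blood cell markers summed to 28.8, 15.7 and 20.8, with CD3E listed at 0 throughout. Nearly all of this was CD68, with 26.3, 13.8 and 19.9 scaled FPKM. All 3 libraries are labelled as the TC32 line, and a link of these markers to the S100 values was not tested.

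Likeness to S100A6 was measured as the distance between the 3 log2(scaled FPKM + 1) values, each gene centred on its own mean. The 5 nearest of the 9938 other compared names were SNORA69, SNORA64, SNORA60, SNORA37 and MIR320B2, at distances of 0.71 to 0.99. These are small RNAs listed at 0 in the knockdown and control libraries and at 8.66 to 24.96 FPKM with YK-4-279, so they share the high YK-4-279 value but no measured level elsewhere. Among names above 0 in all 3 libraries, a limit set after seeing these, the nearest was CCK, the peptide cholecystokinin, at a distance of 1.05, with relative log2 ratios of -0.03 after knockdown and 6.08 with YK-4-279. CRABP1, a retinoic acid-binding protein, followed at 1.25, with 0.753 FPKM after knockdown, 14.2 with YK-4-279 and 5.57 in the control. It had relative log2 ratios of -0.43 after knockdown and 3.46 with YK-4-279. The joined locus KIAA0907,SCARNA4,SNORA42 came at 1.25, with -1.19 after knockdown and 3.01 with YK-4-279. PSMB8, a subunit of the immunoproteasome, came at 1.34, with 0.13 after knockdown and 3.88 with YK-4-279. TNFAIP6, a hyaluronan-binding protein, came at 1.41, with -2.44 after knockdown and 2.70 with YK-4-279. All 5 were high with YK-4-279 on scaled values, which the choice by likeness to S100A6 brings about. CCK and PSMB8 were near the control after knockdown. On deposited FPKM, TNFAIP6 had 49.2 with YK-4-279 against 46.7 in the control, and the joined locus 121.9 against 96.2. CCK had 38.1 against 0.634 and PSMB8 6.64 against 0.0752 in the same order.

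**Figure D5:**
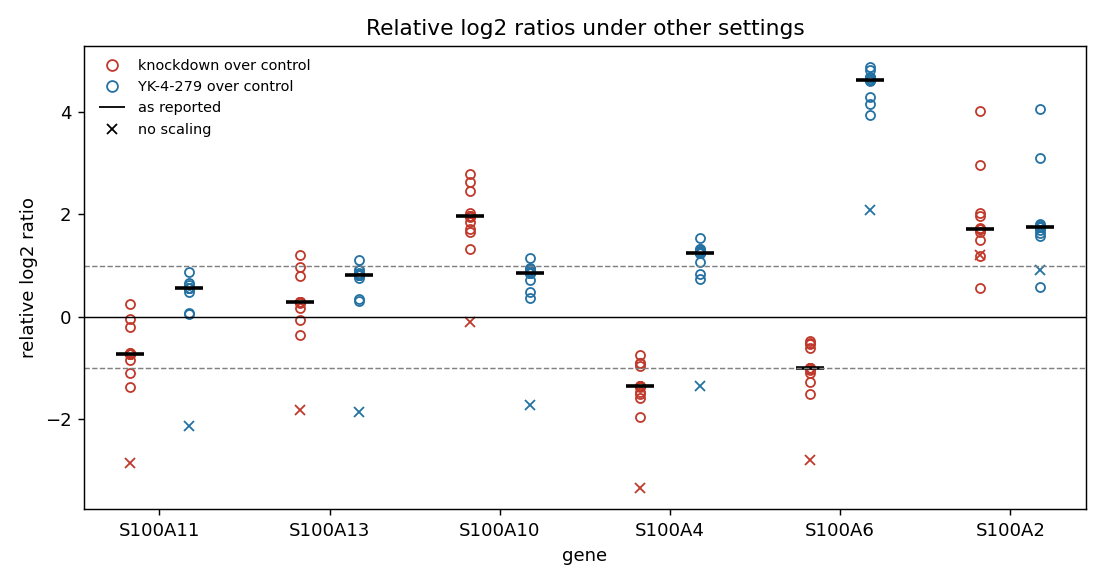
Relative log2 ratio (vertical axis) of the 6 compared S100 genes under the other settings (circles), as reported (black bars) and without scaling (crosses), for knockdown over control and YK-4-279 over control. S100A6 with YK-4-279 lies from 2.09 to 4.88 in all of them, S100A10 after knockdown falls below 0 without scaling, at -0.11, and S100A4 with YK-4-279 at -1.36.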

How the data were processed

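Total RNA of 3 TC32 cultures was made into cDNA with a SMARTer kit, sheared and amplified by PCR, per the labels' protocols. The authors deposited FPKM for 88434 loci per library, of which 24751 carry a gene name. The submitters' processing notes name CASAVA 1.8.2, TopHat, Cufflinks 2.2.1 and the build GRCh37 (hg19). The annotation is not stated there, nor is any scaling between libraries. The knockdown values are headed dEF, while their sample is titled shEF, and were assigned by that sample's labels. Loci were summed by name with Python 3.11.15 and pandas 2.3.3. Libraries were scaled on the median, over 9883 compared names above 0 in all 3, of the ratio to the geometric mean. The planned wording did not say which names set the scale; all 17160 names above 0 were an added alternative, as were names with a mean of at least 5 FPKM. A pseudocount of 1 was added. No test was possible with 1 library per group. Fragments were estimated from the median of the lowest olfactory receptor values (23, 28 and 39 genes) and GENCODE 29 transcript lengths; 95% intervals are exact and cover counting error only, since PCR copies are not independent molecules. The procedure was checked on simulated data whose libraries shared the same levels apart from some changed names. A shift with mean level, as seen after knockdown, was not simulated. The members and lists were chosen with earlier results of these data known. Named were all 10 members, the listed genes past the threshold (up to 5 largest per list and comparison) and listed partners of the members, and for S100A6 the 5 nearest patterns; S100A8 and S100A9 were named after their values were seen. Some listed genes are counted in their lists but not reported here. Promoters are from RefSeq (GRCh38.p14).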

Additional observations from a re-analysis of the deposited data

How the results depend on the processing

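The 14 other settings left S100A6 above the threshold with YK-4-279, from 2.09 to 4.88, and over knockdown, from 4.49 to 6.10; after knockdown it stayed below 0, from -2.81 to -0.48, and called under 10 of 14. As reported, 2 members were higher and 2 lower after knockdown, 3 higher and 0 lower with YK-4-279, and 3 higher and 1 lower with YK-4-279 over knockdown. Over all names these were 1715 and 1689, 240 and 168, and 1516 and 1442.

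Without scaling, 1 member was higher and 4 lower after knockdown, and 1 was higher and 4 lower with YK-4-279, where S100A10 turned to -0.11 after knockdown and S100A4 to -1.36 with YK-4-279. Over all names this gave 301 higher and 7094 lower after knockdown, 57 and 9160 with YK-4-279, and 505 higher for YK-4-279 over knockdown. By construction it keeps the shift between libraries. Deposited ratios centred on the median gave 1225 names higher and 446 lower with YK-4-279. On 7 reference genes, 0 members were lower after knockdown and 5 higher with YK-4-279, with 3253 names higher and 469 lower, 410 and 73, and 858 and 2308 in the 3 comparisons. On all names above 0 there were 911 and 3358 names after knockdown and 155 and 813 with YK-4-279, and 0 members lower for YK-4-279 over knockdown, as with upper quartile scaling, where S100A10 stood at -0.94. On names with a mean of at least 5 FPKM, 0 members were lower after knockdown, with 2816 and 703 names, and 787 and 2342 for YK-4-279 over knockdown. Relative to genes of like level, 0 members were lower after knockdown, with 985 names lower, and 901 higher for YK-4-279 over knockdown.

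A pseudocount of 5 left 1 member higher and 0 lower after knockdown, with 661 and 1111 names, 118 and 78 with YK-4-279, and 567 lower for YK-4-279 over knockdown. A pseudocount of 0.1 gave 629 and 288 names with YK-4-279. Without a filter 363 names were higher with YK-4-279. A minimum mean of 5 FPKM removed S100A2, leaving 1 member higher after knockdown, with 662 names higher, 136 with YK-4-279 and 655 lower for YK-4-279 over knockdown. The cause was not tested except where the construction shows it. Single members and lists moved beyond counting error, or by over 1.5 times, in 152 values and kept within it in 347. No paired analysis was possible because each group has 1 library.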

Other observations

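The other EF-hand proteins, relatives of the S100 genes with the same calcium loop, were listed with 33 names, and 23 were compared. After knockdown 4 were higher and 3 lower, beside 17.3% and 17.0% of all compared names, with a median relative log2 ratio of -0.08. With YK-4-279, 0 were higher and 1 was lower, beside 2.41% and 1.69% of all, and the median was 0.11. RCN1 and RCN2, calcium-binding proteins of the secretory pathway, were the highest after knockdown at 2.97 and 2.41, and stood at 0.63 and 0.46 with YK-4-279. CAPN2, the large subunit of calpain 2, and CAPNS1, the calpain small subunit, were higher after knockdown at 1.54 and 1.08, but below the control on deposited FPKM. VSNL1, a neuronal calcium sensor, was the lowest at -2.79, with 0.75 FPKM after knockdown, 4.28 with YK-4-279 and 41.3 in the control. GCA, grancalcin, stood at -1.23 after knockdown.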
